A study of Mus musculus with 8 samples.

Results

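The unfolded protein response genes examined here are 10 genes that cells are known to induce when protein folding in the endoplasmic reticulum (ER) falters: Manf, Creld2, Hspa5, Hsp90b1, Pdia4, Sdf2l1, Dnajb9, Herpud1, Xbp1 and Ddit3. They were taken by name, as every non-control probe whose gene name in the array design was one of them. That gave 11 probes on 20 spots, among 39429 probes on 43020 non-control spots, and all 10 genes were among the 18093 genes tested. RNA came from the left ventricle (septum, free wall and apex, homogenised) of male C57Bl/6j mice, an inbred strain for which the labels name no engineered allele. The 4 low salt mice ate a diet with 0.05% sodium and the 4 normal salt mice a diet with 0.4% sodium, in both cases for 8 weeks, and all 8 were killed at 16 weeks of age, anaesthetised with pentobarbital. Each of 4 Agilent 2-colour arrays carried 2 mice of the same diet, mice 1 and 3 of each diet in the dye Cy3 and mice 2 and 4 in Cy5, so diet differs only between arrays, and a mouse and its dye cannot be told apart within an array.

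The ER folds secreted and membrane proteins with the help of chaperones and of enzymes that form disulfide bonds. When unfolded proteins accumulate, 3 sensors in the ER membrane respond: IRE1 splices the Xbp1 mRNA, ATF6 is cut to free a transcription factor, and PERK slows translation while favouring that of ATF4, which induces Ddit3. In the heart muscle cell the same organelle system, as the sarcoplasmic reticulum, stores the calcium that drives contraction, and several ER chaperones bind calcium.

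ATF6 and XBP1 are known to act through the ER stress response element, ERSE, whose letters are CCAAT, then 9 bases of any kind, then CCACG. The matches below are shown because they are the common sequence feature by which several of these genes are known to be induced together. Mouse promoters were read on both strands from 250 bases before to 50 bases after the RefSeq gene start (build GRCm38.p6), and 9 of the 10 genes had an entry, Manf being the other. Capitals mark the match, and 10 bases on each side are given in lower case, 5′ to 3′.
Creld2, chr15:88819510-88819548, minus strand, opposite to the gene: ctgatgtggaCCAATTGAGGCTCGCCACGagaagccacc
Hspa5, chr2:34772015-34772053, plus strand, as the gene: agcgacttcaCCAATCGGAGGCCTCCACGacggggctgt
Hsp90b1, chr10:86705628-86705666, minus strand, as the gene: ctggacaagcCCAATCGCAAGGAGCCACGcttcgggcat
Hsp90b1, chr10:86705523-86705561, plus strand, opposite to the gene: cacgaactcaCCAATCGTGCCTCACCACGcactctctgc
Pdia4, chr6:47813592-47813629, plus strand, opposite to the gene, ERSE without its last base: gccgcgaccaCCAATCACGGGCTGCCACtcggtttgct
Herpud1, chr8:94386367-94386397, plus strand, as the gene, ERSE-II (ATTGG, 1 base, CCACG): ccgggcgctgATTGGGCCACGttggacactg

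The full ERSE stood in the promoters of 3 of these genes (Creld2, Hspa5 and Hsp90b1), against 39 of 32851 promoters in the table, or 0.119%. Without its last base it was found in those of Pdia4 and Herpud1, against 83 promoters (0.253%). ERSE-II was found in Herpud1, against 12 promoters (0.0365%). The core of the XBP1 element, TGACGTGG, was found in 0 of the 9, against 222 promoters (0.676%). The Creld2 match lay 126 to 108 bases before the gene start, that of Hspa5 65 to 47 bases, and the Hsp90b1 matches 212 to 194 and 107 to 89 bases before it. These are matches of letters, and binding was not measured.

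Manf and Creld2 were the genes of the group with the greatest differences between diets, and in both every low salt mouse read above every normal salt mouse. Neither passed an adjusted p of 0.05 in limma. Pdia4, Sdf2l1, Hspa5 and Xbp1 had smaller positive differences, Hsp90b1 and Dnajb9 lay near 0, and Ddit3 and Herpud1 had negative ones, all within the spread between mice. In this tissue, fewer cells of a type and less RNA per cell cannot be told apart. Values below are normalised log2 intensities, in which 1 unit is a doubling. They are compared between mice for the same probe, except in the marker sums, which add unlogged intensities over different probes.

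Of the 10 genes, 0 passed an adjusted p of 0.05 in limma, adjusted by Benjamini-Hochberg over all genes, against 145 of 18093 genes, or 0.801%, of which 138 rose and 7 fell. At an unadjusted p of 0.05 there were 2 of 10, against 11.1% of all genes. The same 2 genes were those in which all low salt mice lay above all normal salt mice, a pattern that 1441 genes, or 7.96%, showed. A further 876 of the 18093 genes showed the reverse, all low salt mice below all normal salt mice. In the series' own comparison, made within each dye, 0 of 10 reached a 1.5-fold difference of 1 direction in Cy3 and in Cy5 alike, against 3.3% of all genes. In total 6 of the 10 had a positive difference and 4 a negative one. The median difference was 0.16 over the 10 genes and 0.01 over all genes. The median over the 10 genes was 0.072 with the array of normal salt mice 1 and 2 left out, 0.104 with normal salt mouse 4 left out, 0.0986 in Cy3 alone and 0.244 from the scanner's processed signal.

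**Figure D1:**
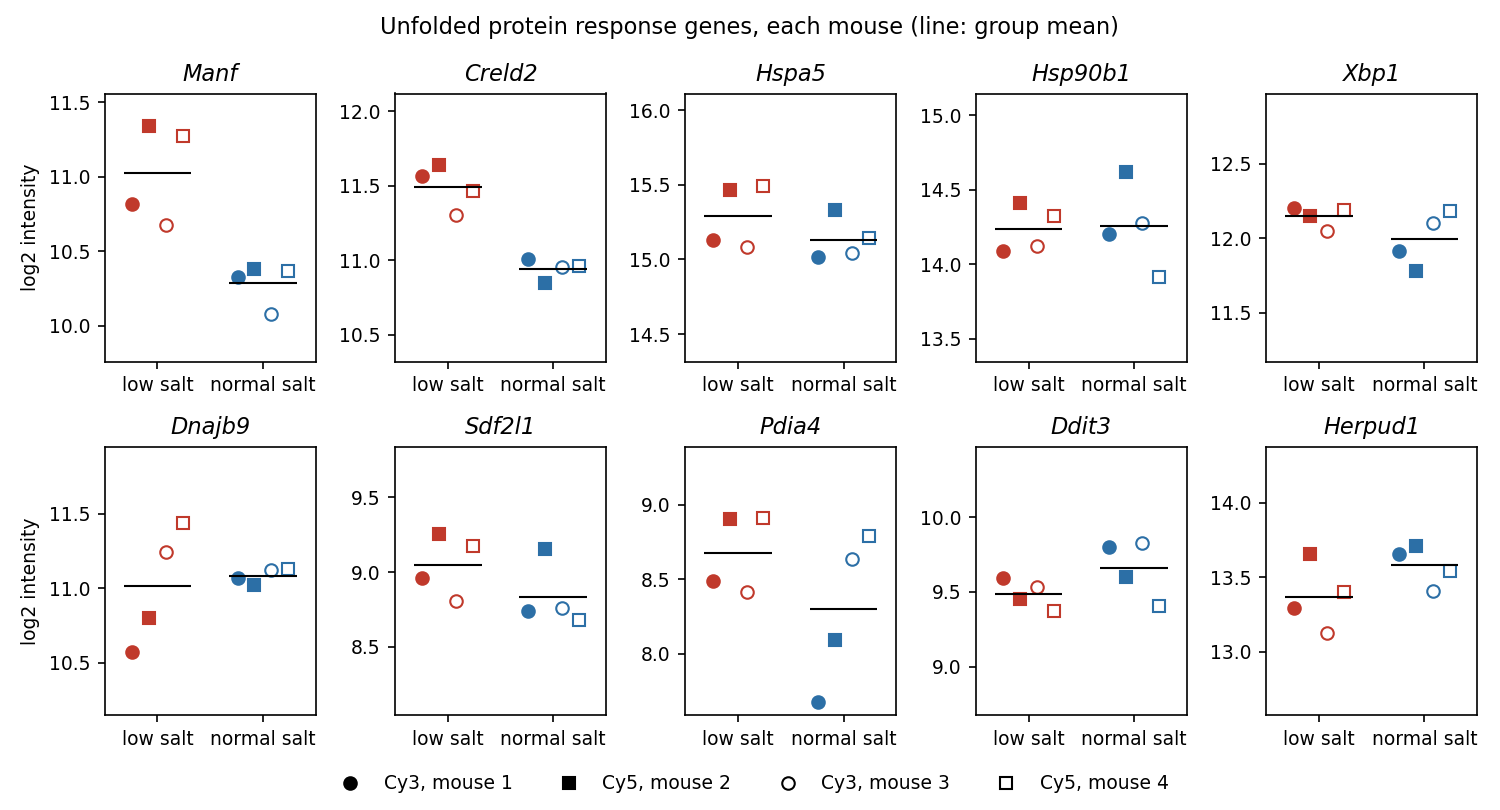
Normalised log2 intensity of each of the 10 genes in each mouse, low salt left and normal salt right in every panel; circles are Cy3 mice, squares Cy5 mice, filled symbols the array of mice 1 and 2, open symbols that of mice 3 and 4, and lines group means. All panels span the same number of log2 units. The low salt and normal salt mice do not overlap for Manf and Creld2, and overlap for the other 8 genes.

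Manf encodes a small ER protein that is secreted when the ER is stressed or loses calcium. Its probe lies at chr9:106791278-106791337, minus strand, on the mm9 build of the array design. It read 10.82, 11.34, 10.68 and 11.28 in low salt mice 1 to 4, against 10.33, 10.38, 10.08 and 10.37 in normal salt mice 1 to 4. The groups did not overlap, the Cy5 mice 2 and 4 being the higher low salt mice and mouse 3 the low one among normal salt mice. The means were 11.03 ± 0.33 in low salt and 10.29 ± 0.14 in normal salt (SD, n = 4 each). The difference was 0.74 ± 0.17 (SE), or 1.67-fold, with a 95% interval of 0.35 to 1.12 and a limma adjusted p of 0.123 (unadjusted 0.00209). It was 0.54 among Cy3 mice and 0.93 among Cy5 mice.

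Creld2 encodes an ER protein with EGF-like domains that is also secreted on ER stress. Its probe (mm9 chr15:88656997-88657056, plus strand) was printed on 10 spots of the array, so this gene has repeated readings in each mouse. Averaged over spots it read 11.57, 11.64, 11.30 and 11.46 in low salt mice, against 11.01, 10.85, 10.96 and 10.96 in normal salt mice. The groups did not overlap, and low salt mouse 3 was the lowest of its group. The means were 11.49 ± 0.15 in low salt and 10.94 ± 0.07 in normal salt (SD, n = 4 each), a difference of 0.55 ± 0.13 (SE), or 1.46-fold. The 95% interval was 0.26 to 0.84 and the limma adjusted p 0.128, with an unadjusted p of 0.00227. The difference was 0.45 among Cy3 mice and 0.65 among Cy5 mice.

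The repeated spots allow readings of 1 probe to be compared between places on the array. In 6 of the 10 spots the scanner software marked no reading as an outlier in any mouse. Their differences ran from 0.45 to 0.62, with a mean of 0.51 and an SD between spots of 0.0676, and the diets did not overlap in 6 of the 6. Within a mouse, the SD over these spots was 0.0399 to 0.142. One of the marks is for a spot that departs from the other spots of its probe, so the unmarked spots agree in part by selection. Their spread therefore does not carry over to genes read from 1 spot. The lowest low salt reading among them was 11.25, and the highest normal salt reading was 11.17. The other 4 spots lacked 2 to 4 readings each, and the spot with readings from normal salt mice alone was dim in all of them, at 10.55 to 10.72. That spot enters only the normal salt averages, so the difference of 0.55 compares partly unlike sets of spots. Read from the 6 complete spots, an alternative chosen after seeing the data, Creld2 differed by 0.51 with a limma adjusted p of 0.117. Spots of 1 probe in 1 mouse share its RNA and are not replicates of the diet.

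**Figure D2:**
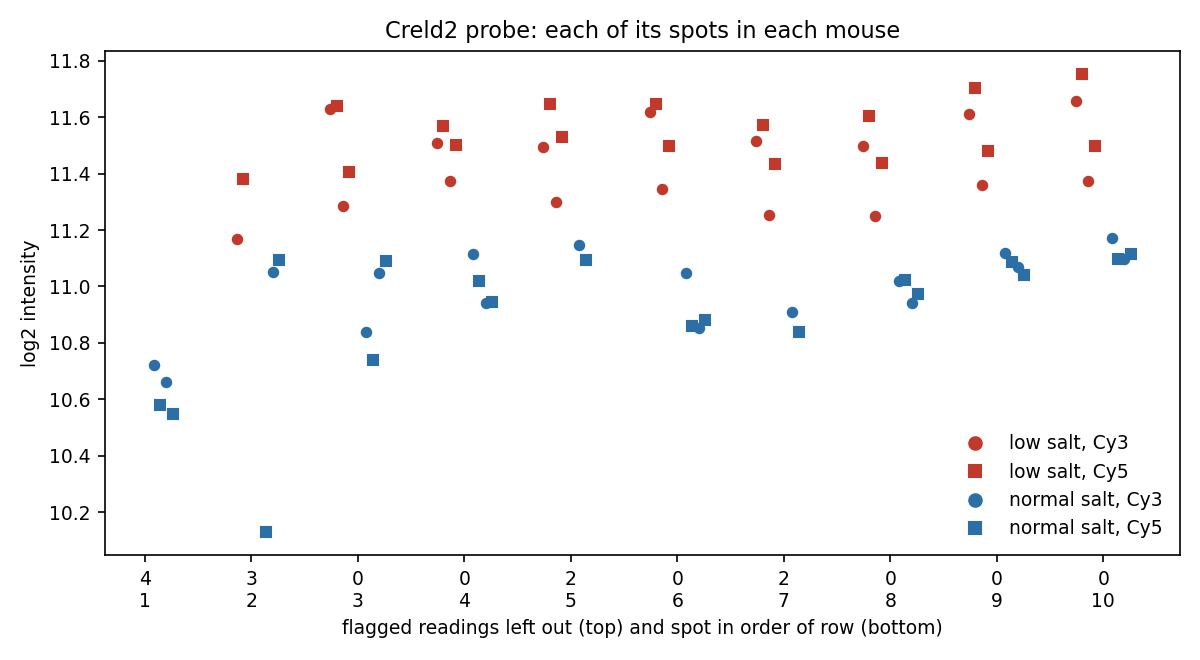
Normalised log2 intensity of the Creld2 probe at each of its 10 spots in each mouse, with spots in order of their row on the array; red is low salt, blue normal salt, circles Cy3 and squares Cy5, and the upper number under each spot is how many of its 8 readings were left out. In the 6 spots with 0 left out, the low salt readings lie above the normal salt readings, from 11.25 upward against 11.17 downward.

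Alg12, which encodes a mannosyltransferase of ER glycan assembly, starts beside Creld2 and its promoter window holds the same ERSE, at chr15:88819520-88819538 in GRCm38.p6. It was looked up for that reason, after the values had been seen. It read 7.87, 7.84, 8.25 and 8.05 in low salt mice, against 7.78, 7.44, 7.66 and 7.63 in normal salt mice. The groups did not overlap, and the difference was 0.38 ± 0.14 (SE) with a limma adjusted p of 0.381. The ERSE was held by promoters of 37 genes, of which 16 were measured, Creld2, Hspa5, Hsp90b1 and Alg12 among them. Without the first 3, there were 13, of which 0 passed the adjusted threshold in limma (0.801% of all genes) and 4 had an unadjusted p under 0.05 (11.1% of all genes). Of these 4, Alg12 and Zfp57 had positive differences and Spats2l and Pan2 negative ones. In all 9 of the 13 had a positive difference and 4 a negative one, with a median of 0.02 against 0.01 over all genes.

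The ER chaperones were less separated. Hspa5 (BiP), the ATP-driven chaperone that also holds the sensors inactive, read 15.13, 15.47, 15.09 and 15.49 in low salt mice, against 15.02, 15.33, 15.04 and 15.14 in normal salt mice. The Cy5 mice 2 and 4 were the high ones in low salt, mouse 2 was the high one in normal salt, and the groups overlapped. The difference was 0.16 ± 0.11 (SE), with a 95% interval of -0.10 to 0.42 and a limma adjusted p of 0.609. Its probe lies at mm9 chr2:34631913-34631972, plus strand, and was not saturated on any array.

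Hsp90b1 (GRP94), the ER member of the HSP90 family, read 14.09, 14.41, 14.12 and 14.33 in low salt mice, against 14.21, 14.62, 14.28 and 13.92 in normal salt mice (mm9 chr10:86153770-86153829, minus strand). Normal salt mice 2 and 4 were the highest and the lowest of all 8, so the low salt mice lay inside the normal salt range. The difference was -0.02 ± 0.23 (SE), with a 95% interval of -0.54 to 0.50. Its sign differed between dyes, at -0.14 in Cy3 and 0.10 in Cy5.

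Sdf2l1, a partner of the ER J-proteins that works with BiP, read 8.96, 9.25, 8.81 and 9.17 in low salt mice, against 8.74, 9.15, 8.76 and 8.68 in normal salt mice (mm9 chr16:17130426-17130485, minus strand). Normal salt mouse 2 fell among the low salt mice, and the other normal salt mice lay below all of them. The difference was 0.22 ± 0.16 (SE), with a 95% interval of -0.16 to 0.59 and a limma adjusted p of 0.638.

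Dnajb9 (ERdj4), a J-domain co-chaperone that brings BiP to IRE1, had 2 probes. The brighter one (mm9 chr12:45307313-45307372, minus strand) read 10.57, 10.80, 11.24 and 11.44 in low salt mice, against 11.07, 11.02, 11.12 and 11.13 in normal salt mice. The low salt array of mice 1 and 2 gave the lowest readings of all 8 mice, and that of mice 3 and 4 the highest, with normal salt in between. The 2 low salt arrays averaged 10.69 and 11.34, and the difference between diets was -0.07 ± 0.20 (SE). The second probe (mm9 chr12:45308272-45308331, minus strand) did not show that split: it read 7.45, 7.95, 7.66 and 7.89 in low salt mice, against 7.72, 7.64, 7.66 and 7.87 in normal salt mice. In the fit over all probes, in which 0.823% of probes passed, 0 of the 11 probes did, and this probe had a difference of 0.01 with an adjusted p of 0.984.

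Pdia4, an ER protein disulfide isomerase, read 8.49, 8.90, 8.41 and 8.91 in low salt mice, against 7.68, 8.09, 8.63 and 8.79 in normal salt mice (mm9 chr6:47746516-47746575, minus strand). Normal salt mice 1 and 2, on the same array, lay below all low salt mice, while normal salt mice 3 and 4 lay within the low salt range. The difference was 0.38 ± 0.23 (SE), with a 95% interval of -0.15 to 0.92 and a limma adjusted p of 0.562. It turned on which normal salt array was used: it was -0.032 when mice 1 and 2 of normal salt were left out together, and 0.79 with a limma adjusted p of 0.0423 when mice 3 and 4 were. Without mice 3 and 4 of normal salt, 196 of all genes passed the adjusted threshold, against 145 in the main fit.

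Herpud1, a membrane protein that organises the ubiquitin ligase complex of ER-associated degradation, was slightly lower on average in low salt. It read 13.29, 13.66, 13.13 and 13.40 in low salt mice, against 13.65, 13.71, 13.41 and 13.54 in normal salt mice (mm9 chr8:96919117-96919176, plus strand). Low salt mouse 2 reached the normal salt range, and the groups overlapped. The difference was -0.21 ± 0.14 (SE), with a 95% interval of -0.52 to 0.10 and a limma adjusted p of 0.579.

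Neither transcription factor of the group, Xbp1 or Ddit3, passed the test, and the diets overlapped in both. Xbp1 read 12.20, 12.15, 12.05 and 12.19 in low salt mice, against 11.91, 11.78, 12.11 and 12.18 in normal salt mice (mm9 chr11:5425816-5425875, plus strand). Normal salt mice 1 and 2 lay below all low salt mice, and mice 3 and 4 did not. The difference was 0.15 ± 0.13 (SE), with a limma adjusted p of 0.680; spots around this probe differed by -0.11 between diets, and the difference was 0.26 after the local trend was subtracted. It was 0.0022 with the array N1-2 left out, which holds normal salt mice 1 and 2, and 0.30 with N3-4 left out; it was 0.090 with normal salt mouse 2 alone left out, and 0.33 from the scanner's processed signal. A single probe intensity does not tell spliced from unspliced Xbp1.

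Ddit3 (CHOP), the PERK branch factor linked to cell death under prolonged stress, read 9.60, 9.46, 9.53 and 9.37 in low salt mice, against 9.80, 9.60, 9.83 and 9.41 in normal salt mice. Normal salt mice 1 and 3 lay above all low salt mice, mouse 2 lay level with the highest of them, low salt mouse 1, and mouse 4 lay among them. The difference was -0.17 ± 0.11 (SE), with a 95% interval of -0.43 to 0.09 and a limma adjusted p of 0.594. The array design gives its probe a span of chr10:126732518-126732821 on mm9, plus strand, longer than the 60 bases of a probe.

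**Figure D3:**
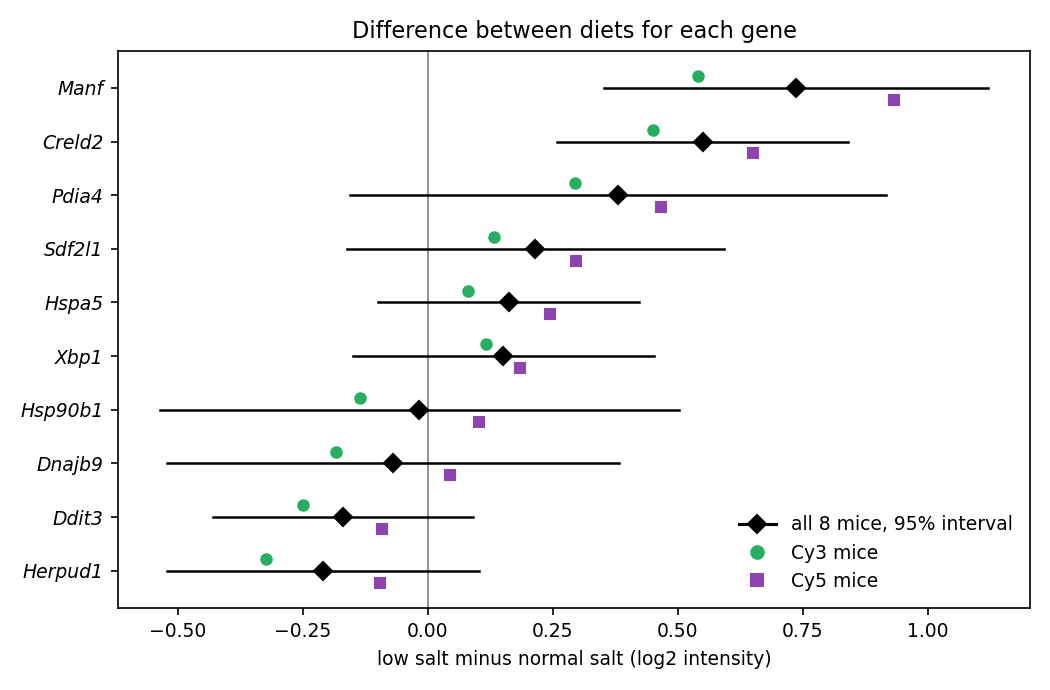
Difference of each gene, low salt minus normal salt in log2 intensity, ordered from the highest at the top; diamonds and lines are the estimate over all 8 mice with its 95% interval, circles the difference among Cy3 mice and squares that among Cy5 mice. The intervals of Manf (0.35 to 1.12) and Creld2 (0.26 to 0.84) lie above 0, those of the other 8 genes include 0, and 8 of 10 genes have the same sign in both dyes.

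Settings of the model decide whether Manf and Creld2 pass. With the mice treated as independent of their array, their adjusted p-values in limma were 0.0116 and 0.0207. That fit ignores the correlation of 0.562 between mice of an array, although diet differs only between arrays, so its errors are too small. For Manf the SE was 0.10, against 0.17 in the main fit. The limma adjusted p-values of Manf and Creld2 were 0.0446 and 0.0278 when the array holding mice 3 and 4 of low salt was left out. Calls among all genes rose too, to 628 in the first of these fits and 1051 in the second, against 145 in the main fit. Leaving out mice 3 and 4 of low salt leaves that diet with 1 array, where array and diet cannot be told apart.

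Hspa5 served as the point of comparison for how the genes moved from mouse to mouse. Over the 8 samples, each centred on the mean of its dye, Pearson's r with Hspa5 was 0.93 for Sdf2l1, 0.85 for Manf, 0.77 for Creld2 and 0.51 for Hsp90b1. It was 0.29 for Pdia4, 0.19 for Xbp1, -0.10 for Dnajb9, -0.26 for Ddit3 and -0.27 for Herpud1. The genes most like Hspa5 were Myo9b, at 0.98, then Zfp469, Atp11a, Clip1, Sav1, Ddx3x, Podxl2, Fkbp5, LOC100862557 and the unnamed probe A_55_P2087281, at 0.95. Spots around the Myo9b probe differed by 0.33 between diets, and those around the Podxl2 probe by 0.17. With Sdf2l1, 18 genes had a higher r, with Manf 192 and with Creld2 689. These values describe 8 samples that share 4 arrays and hold both diets.

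Other genes of the pathway and paralogues of the 10 genes were read in 7 lists of 92 genes, of which 87 were measured. The paralogues lie outside the secretory pathway or are not induced with the 10 genes, and the counts over the 87 include the 11 of them measured. In limma 0 of the 87 passed the adjusted threshold in either direction, against 0.801% of all genes, and 9 had an unadjusted p under 0.05, against 11.1% of all genes. Of the 87, 45 had a positive difference and 42 a negative one, and the median was 0.01. By list, the median difference was 0.02 over the 11 sensors and transcription factors, 0.01 over 14 of 15 other ER chaperones and 0.02 over 13 other disulfide isomerases and oxidases. It was 0.06 over 14 of 16 genes of ER-associated degradation, -0.01 over 10 of 11 targets of the PERK branch, 0.00 over 14 genes of ER entry and -0.04 over 11 of 12 paralogues of the 10 genes. Among the sensors, Ern1 (IRE1) differed by -0.08, Eif2ak3 (PERK) by -0.03 and Atf6 by 0.13. Calreticulin (Calr), the calcium-binding chaperone whose promoter window also holds the ERSE, differed by 0.01.

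**Figure D4:**
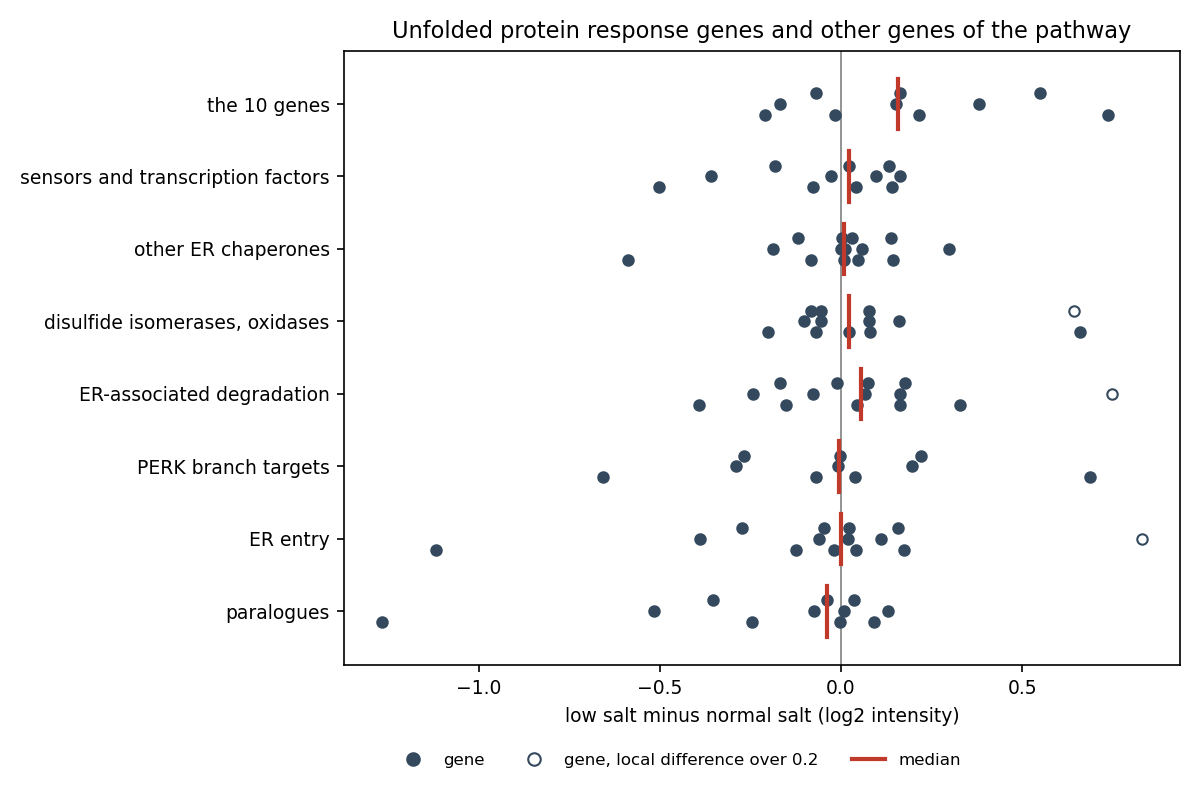
Difference of each measured gene, low salt minus normal salt in log2 intensity, for the 10 genes in the top row and for the 7 other lists below; each point is a gene, open points are genes whose surrounding spots differ by over 0.2 between diets, and red bars are medians. The median is 0.16 for the 10 genes and lies between -0.04 and 0.06 for the other lists.

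Atf4, the transcription factor translated when PERK is active, was the sensor-list gene with the smallest p. It read 12.57, 12.68, 12.81 and 12.84 in low salt mice, against 13.03, 13.31, 12.99 and 13.01 in normal salt mice. The diets did not overlap, low salt being the lower as it was on average for Ddit3, and the difference was -0.36 with a limma adjusted p of 0.351. Its second probe gave -0.24. The next genes of that list, Atf6b and Ern2, differed by -0.18 and 0.10.

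Of the 10 PERK branch targets measured, 0 passed the adjusted threshold in limma, and 3 had an unadjusted p under 0.05: Chac1, Ddit4 and Cebpb, named as the smallest p-values of that list. Chac1, an enzyme that degrades glutathione, read 9.999, 9.78, 9.49 and 9.62 in low salt mice, against 9.21, 9.09, 9.17 and 8.68 in normal salt mice. The groups did not overlap, and the difference was 0.69 with a limma adjusted p of 0.225. Ddit4, an inhibitor of mTORC1, differed by -0.66 with an adjusted p of 0.218 and no overlap, and Cebpb by -0.29.

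P4hb, the main ER disulfide isomerase, and Sec61g, a subunit of the translocation channel, came nearest to the threshold. P4hb read 12.19, 12.36, 12.12 and 12.37 in low salt mice, against 11.71, 11.73, 11.495 and 11.53 in normal salt mice, a difference of 0.64 with a limma adjusted p of 0.0563. Spots around its probe differed by 0.33 between diets, and the difference was 0.31 with an adjusted p of 0.217 after the local trend was subtracted. For Sec61g the difference was 0.83 with an adjusted p of 0.0615, the surrounding spots differed by 0.24, and the corrected difference was 0.60 with an adjusted p of 0.114. In comparison, the spots around those of the 10 genes differed by at most 0.164 in size.

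The other named genes of the folding, entry and degradation lists had larger adjusted p-values. Pdia3 differed by 0.66 with overlap between diets, and Pdia6 by 0.16 with -0.12 on its second probe. Sec62, a translocation channel partner, differed by -0.27 with a limma adjusted p of 0.416, its low salt mice all below the normal salt mice. On its second probe it differed by -0.34. Spots around these probes differed by -0.12 and -0.16 between diets, and the first difference was -0.15 after the local trend was subtracted. Ube2j1, a ubiquitin-conjugating enzyme of ER-associated degradation, differed by 0.75 on its brightest probe, where the surrounding spots differed by 0.26, and by 0.03 and 0.05 on its other probes. Edem1 differed by -0.24 and Herpud2, the paralogue of Herpud1, by 0.18.

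Low salt mice 1 and 2 stood apart from mice 3 and 4 in further genes besides Dnajb9. Ssr2, of the translocon-associated complex, read 8.86, 8.44, 10.55 and 10.75 in low salt mice, against 10.69 to 10.83 in normal salt mice, and its difference of -1.12 had a limma adjusted p of 0.472. Serpinh1, the collagen chaperone, read 11.87, 11.75, 12.64 and 12.79 in low salt mice, against 12.72, 12.89, 12.60 and 13.18 in normal salt mice. Cnpy3 and Ppib, the other named ER chaperones, did not show that split and differed by 0.30 and -0.19. Spots around the Cnpy3 probe differed by -0.16 between diets, and its difference was 0.46 after the local trend was subtracted.

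The paralogues of Manf and Creld2 had a negative and a smaller positive difference. Cdnf, the paralogue of Manf, differed by -0.35 with overlap. It read 8.84 and 9.28 in low salt mice 1 and 2, which share an array, and 9.80 and 9.62 in mice 3 and 4. The normal salt mice read 9.70 to 9.82, so the difference rests mainly on 1 low salt array. Creld1, the paralogue of Creld2, differed by 0.13 with a limma adjusted p of 0.608, although its low salt mice all lay above the normal salt mice. Whether these differences depart from those of Manf and Creld2 was not tested. The cytosolic heat shock gene Hspa1a, of the same family as Hspa5, read 6.91, 6.74, 7.89 and 7.19 in low salt mice, against 7.20, 8.34, 7.65 and 10.61 in normal salt mice. Normal salt mouse 4 stood far above the other 7 mice, and the difference of -1.27, with a limma adjusted p of 0.650, includes it.

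Markers of the tissue and of other cells were read beside these genes. All 8 ventricular cardiomyocyte markers were measured, with a median difference of -0.17. Of the other lists, 6 of 7 atrial markers (Bmp10 not measured) had a median of -0.65, 8 endothelial markers -0.31 and 7 fibroblast markers -0.10. The macrophage markers (5 of 6, without Cd163) had a median of 0.26, the plasma and B cell markers (4 of 6, without Jchain and Ms4a1) -0.07 and the adipocyte markers (3 of 5, without Lep and Plin1) 0.06. In each of these lists, 0 genes passed the adjusted threshold in limma, with 2 at an unadjusted p under 0.05 in the ventricular and 2 in the endothelial list and 0 in the others.

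Summed over the markers measured, intensities were 7795 to 10968 in low salt and 6771 to 8062 in normal salt for macrophages, 62.5% to 70.2% of it from Csf1r, whose low salt mice all lay above the normal salt mice. Without Csf1r the macrophage sums were 2679 to 3268 in low salt and 2385 to 3022 in normal salt, which overlap. The fibroblast sums were 38847 to 82268 in low salt and 70605 to 103772 in normal salt, 71.3% to 84.5% of it from Dcn. Without Dcn they were 10995 to 19299 in low salt and 14139 to 16067 in normal salt, and Col1a1, Col3a1 and Tcf21 had positive differences of 0.33, 0.14 and 0.13. Spots around the Col1a1 probe differed by 0.26 between diets.

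The atrial sums were 56312 to 74724 in low salt and 28702 to 137691 in normal salt, 47.6% to 93.6% of it from Nppa, which differed by 0.39 where the other 5 atrial markers had negative differences. Without Nppa the atrial sums were 4758 to 25390 in low salt and 9210 to 65385 in normal salt, which overlap. Plasma and B cell markers summed to 922 to 1040 in low salt and 881 to 1007 in normal salt. The part of these cells in the differences of Manf and Creld2 was not tested.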

How the data were processed

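Left ventricle RNA of 8 mice was read on 4 Agilent 2-colour arrays. The deposited scanner tables hold spot and background intensity per channel, made by Agilent Feature Extraction 11.5.1.1 per the file headers; each sample was read from its own dye's channel. Median spot intensity was 116 to 147 over a median background of 15.5 to 33.5, and 53.0% to 66.3% of spots were well above background; the number of arrays limits the precision.

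Mean signals were background-corrected by normexp (offset 50), normalised by loess within and Aquantile between arrays, and tested in limma 3.58.1 under R 4.3.3. The model held diet and dye, with array as a random block (correlation 0.562) and Benjamini-Hochberg adjustment over 18093 genes. Where the local background was marked as an outlier, the channel median replaced it, and normexp was fitted on unmarked spots, a departure from the plan. Control and marked spots were left out, spots of a probe averaged, probes kept if 4 or more samples read well above background, and each gene read from its brightest probe; all 11 probes were well above background in 8 of 8 samples. The local trend is the median deviation from the mean of all samples over 21 by 21 spots. Tests are 2-sided; the procedure was tested on simulated data.

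Each gene of the 10 was named with all its probes, along with the 3 smallest p-values of each of the 7 lists and the 10 genes most like Hspa5 by Pearson's r. The genes and lists were chosen with earlier results of these data known. Same-numbered mice of the diets share a dye: their deviations correlated at 0.30, 0.14, 0.16 and 0.19, and at 0.09, 0.02, 0.13 and -0.01 with dye removed, so numbers were not taken as pairs. The deposited value table of the series was not used, since its rows could not be named. Alternatives covered background, normalization, filter, probe, block, dye, local trend, and each mouse and array left out.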

Additional observations from a re-analysis of the deposited data

Results flagged for a closer look

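Of 20 groups of 4 mice tested for a value far from the others, 1 was marked, where chance marks about 1 in 20. Normal salt mouse 3 read 10.08 for Manf, below the other normal salt mice, with a gap just past the critical share of the group's range. The 4 low salt mice of Manf were not marked, and all lay above the normal salt mice with or without this mouse.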

How the results depend on the processing

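Over 27 alternatives, the difference of Manf stayed between 0.54 and 0.93 and that of Creld2 between 0.44 and 0.66, with limma adjusted p-values of 0.0116 to 0.889 and 0.0207 to 0.866. The count of the 10 genes past the threshold was 2 with no array block, 1 with the array N3-4 left out (Pdia4), 2 with L3-4 left out, and 0 otherwise, where N1-2, N3-4, L1-2 and L3-4 name the arrays by diet (normal or low salt) and mice. Among all genes it was 241 with mouse number as a replicate block in place of dye (Manf 0.0813 and Creld2 0.0899 in adjusted p, and no call among the 10 genes changed), 42 from the scanner's processed signal, 0 with no normalization between arrays, 0 with each array averaged, 628 with no array block, 0 in Cy3 and 0 in Cy5 alone, 85 with the local trend subtracted and 23 in even parts of the array. It was 266 without array N1-2, 196 (149 up, 47 down) without N3-4, 67 without L1-2 and 1051 (421 up, 630 down) without L3-4. Without each mouse in turn it was 53 to 116.

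Hsp90b1 changed sign to 0.12 from the processed signal, 0.10 in Cy5 and 0.14 without N1-2, and ran from -0.18 to 0.11 without each mouse. Dnajb9 changed sign to 0.045 in Cy5 and 0.26 without L1-2, and ran from -0.15 to 0.014 without each mouse; Pdia4 was -0.032 without N1-2. Genes at least 1.5-fold apart in both dyes numbered 0 to 1 without each mouse, 1 without normal salt mouse 1 or low salt mouse 3. The causes were not tested. Fits without an array leave a diet with 1 array, assumed to vary like the others.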
